A study of Homo sapiens with 14 samples.

Results

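The endoplasmic reticulum (ER) folding and translocation machinery was followed here through 38 genes, found by symbol among the 59050 genes of the deposited count table. All 38 were present. They comprised 12 chaperones and co-chaperones, 7 disulfide and proline isomerases, 4 factors of ER-associated degradation, 3 stress sensor genes counting XBP1, 5 Sec61 translocon genes, 4 subunits of the translocon-associated protein (TRAP) complex and 3 of the signal peptidase.

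The samples came from HUES8, an established human embryonic stem cell line of wild-type genotype, differentiated in culture towards pancreas. Cells were taken as definitive endoderm (DE), as early pancreatic progenitors (PP1) and as late pancreatic progenitors (PP2), and each stage was profiled by RNA sequencing (RNA) and by ribosome profiling (Ribo), which sequences the RNA stretches covered by ribosomes. Both assays covered DE and PP1 with 2 libraries each and PP2 with 3, which made 14 libraries, and no treatment or genotype was contrasted. Whether the replicates are separate differentiations is not given in the sources used here, so the p-values reflect library-to-library spread that could be technical, within 1 cell line.

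Proteins bound for secretion or for membranes enter the ER through the Sec61 channel, which works with the TRAP complex and with SEC62 and SEC63, and the signal peptidase then removes their leader peptide. Inside the ER the Hsp70 protein BiP (HSPA5), the Hsp90 protein GRP94 (HSP90B1), the lectins calreticulin (CALR) and calnexin (CANX) and the disulfide isomerases help them fold, and failed products are returned to the cytosol for degradation. When unfolded protein accumulates, the unfolded protein response is set off by the sensors IRE1 (ERN1), ATF6 and PERK (EIF2AK3): IRE1 splices XBP1 mRNA, ATF6 is cut to a transcription factor, and PERK phosphorylates eIF2, which lowers general translation and favours ATF4. XBP1 and ATF6 raise many chaperone and degradation genes through the ER stress response element (ERSE) and related motifs. Cells that secrete heavily, such as hepatocytes and pancreatic cells, carry much of this machinery.

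The sequences below show where such elements lie in 7 of the 9 members that hold one, chosen after their values were seen: 6 whose RNA fell from PP1 to PP2, and HSP90B1 for contrast. CALR and CANX also hold one and are not shown. RefSeq (GRCh38.p14) gave a promoter, 250 bases before to 50 after the gene start, for 36 members; SPCS1 and PDIA3 were not among them. The bases from just before the first element up to the gene start are given 5′ to 3′ on the gene's strand, with the element in capitals. ERSE was searched as CCAAT and CCACG with 9 bases of any kind between them, and ERSE-II as ATTGG and CCACG with 1 such base between them, each on both strands. ERSE-II is shown for HERPUD1 (chr16:56932010-56932141, plus strand), which had the largest RNA rise of the members, for SDF2L1 (chr22:21642099-21642301, plus strand) and, in 2 copies, for HYOU1 (chr11:119057206-119057405, minus strand).
HERPUD1: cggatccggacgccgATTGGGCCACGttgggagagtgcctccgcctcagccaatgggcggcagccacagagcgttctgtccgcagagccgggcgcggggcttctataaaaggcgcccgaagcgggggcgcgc
SDF2L1: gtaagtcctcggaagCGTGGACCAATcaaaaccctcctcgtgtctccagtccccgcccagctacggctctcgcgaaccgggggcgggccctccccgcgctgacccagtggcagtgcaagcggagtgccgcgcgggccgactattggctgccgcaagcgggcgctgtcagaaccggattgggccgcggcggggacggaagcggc
HYOU1: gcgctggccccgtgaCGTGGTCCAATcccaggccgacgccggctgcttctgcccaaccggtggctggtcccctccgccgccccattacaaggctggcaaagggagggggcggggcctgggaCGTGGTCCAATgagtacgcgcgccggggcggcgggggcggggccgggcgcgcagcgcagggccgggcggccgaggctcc

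ERSE is shown for HSPA5 (chr9:125241344-125241424, minus strand), XBP1 (chr22:28800570-28800644, minus strand) and CRELD2 (chr22:49918539-49918633, plus strand). HSP90B1 (chr12:103930201-103930409, plus strand) holds 2 copies and is given because its RNA passed no test between stages with all libraries kept.
HSPA5: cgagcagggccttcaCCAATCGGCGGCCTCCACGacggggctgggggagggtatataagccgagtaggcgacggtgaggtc
XBP1: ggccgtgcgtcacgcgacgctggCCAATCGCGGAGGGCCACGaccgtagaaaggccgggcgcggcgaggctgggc
CRELD2: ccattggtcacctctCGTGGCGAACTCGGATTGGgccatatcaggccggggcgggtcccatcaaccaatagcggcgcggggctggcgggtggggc
HSP90B1: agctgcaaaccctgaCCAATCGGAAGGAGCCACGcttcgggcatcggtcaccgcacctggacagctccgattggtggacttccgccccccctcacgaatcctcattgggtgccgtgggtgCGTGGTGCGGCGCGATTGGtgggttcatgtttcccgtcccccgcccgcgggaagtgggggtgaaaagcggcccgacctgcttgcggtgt

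ERSE was present in 6 of the 36 promoters (16.7%; HSPA5, HSP90B1, CALR, CANX, CRELD2 and XBP1), against 19 of 15843 promoters of coding genes (0.12%). ERSE-II was present in 3 (8.33%; HYOU1, SDF2L1 and HERPUD1), against 12 (0.0757%). Either motif was in 9 member promoters (25%) and in 31 of all coding genes (0.196%). Many members are chaperone and degradation genes of the kind raised through these elements. Their choice alone favours a higher share, so the difference is a description and not a test. The core of the unfolded protein response element, TGACGTGG, was in HYOU1, where it overlaps an ERSE-II, and in SEC62 (5.56% against 0.833%). The amino acid response element read by ATF4, TGATGNAA, was in HERPUD1 alone among the members (2.78% against 2.53%). These matches describe letters in a fixed window and say nothing of factor binding in these cells.

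Total counts ran from 15107847 to 21009065 per RNA library and from 4710335 to 24186949 per Ribo library. The stages carried their markers in RNA: SOX17 averaged 469 CPM (counts per 1e6 counts) in DE and 11.3 in PP1, PDX1 averaged 61.0 CPM in PP1 and 151 in PP2, and NKX6-1 averaged 0.447 CPM in PP1 and 118 in PP2. RNA PP2 library 3 stood apart from its 2 companions, with a chi-square per degree of freedom over genes of 141 and 152 against 3.48 between libraries 1 and 2. Relative to their mean, it had 5 members more than 2-fold lower, P4HB, HSPA5, SYVN1, SEC61B and PDIA3, and 3 more than 2-fold higher, DNAJB9, SPCS3 and XBP1. The Ribo PP2 libraries also differed in make-up, since protein-coding genes took 95.2%, 44.0% and 79.9% of counts in libraries 1, 2 and 3, against 28.2% to 35.3% in the DE and PP1 libraries. MT-RNR2, a ribosomal RNA of mitochondria, made up 1.65%, 44.6% and 11% of those same PP2 libraries, and 49.2% to 60.8% of the DE and PP1 libraries. Counts of members that rest on these libraries are therefore given with and without them.

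Among coding-gene RNA counts the members together took 0.853% and 0.880% at the DE stage, 1.38% and 1.304% at PP1, and 0.672%, 0.691% and 0.749% at PP2. For DE library 1 of RNA the 95% Wilson interval, which covers counting error only, ran from 0.849% to 0.858%. PP1 was thus above both other stages in RNA, with no overlap of libraries. In Ribo the shares were 1.28% and 1.43% at DE, 2.26% and 2.18% at PP1, and 2.17%, 1.57% and 2.59% at PP2. The Ribo shares rank DE lowest, while the PP2 libraries lie on both sides of the PP1 values.

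RNA of the ER machinery was higher in PP1 than in DE for part of the members, with the largest rises in HERPUD1, DNAJB9 and SDF2L1. With edgeR's quasi-likelihood test and Benjamini-Hochberg adjustment over 24603 genes, 13 of 38 members rose and none fell at an adjusted p under 0.05, and 19 had an unadjusted p under 0.05. Over all genes tested, 24.3% were called, 12.3% higher and 12.0% lower. The median log2 fold change of the members was 0.68, against 0.01 over all genes. By role, 6 of 12 chaperones and co-chaperones, 2 of 4 degradation factors, 2 of 3 sensor genes, 2 of 5 Sec61 translocon genes and 1 of 4 TRAP subunits rose, while none of the 7 isomerases and none of the 3 signal peptidase genes passed. Without RNA PP2 library 3, which enters this comparison through the shared estimate of spread, 26 members rose and 1, SEC61G, fell, and the share called over all genes was then 49.8%. Leaving out a DE or PP1 library left that stage without a replicate, and fewer members and fewer genes of all kinds were then called. HERPUD1, SDF2L1, ERN1, EDEM1 and DNAJB11 passed with each of the 7 RNA libraries left out in turn. The calls of HYOU1, XBP1, SEC61A1 and SSR4 were lost without any one of the DE or PP1 libraries, those of MANF and SEC63 without a DE library or PP1 library 1, that of DNAJB9 without DE library 2 and that of DNAJC3 without DE library 1.

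**Figure D1:**
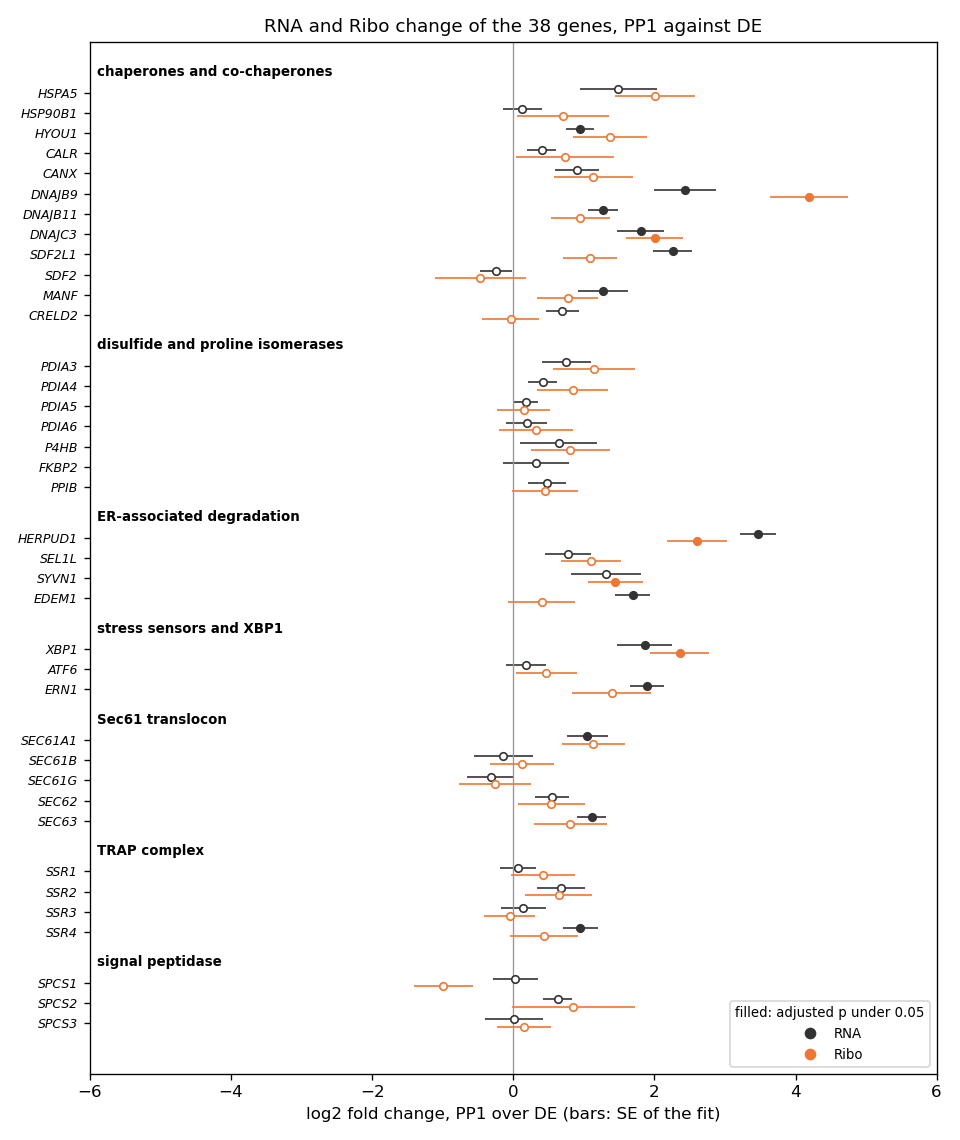
Log2 fold change of each of the 38 genes in PP1 over DE, in RNA (black) and Ribo (orange), grouped by role; points are fitted values, bars are the standard error of the fit, and filled points have an adjusted p under 0.05. HERPUD1, DNAJB9, XBP1 and DNAJC3 are filled in each assay, and the isomerases and signal peptidase genes are open.

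From PP1 to PP2 the direction turned: 19 of 38 members fell in RNA and none rose, with 25 at an unadjusted p under 0.05. The share called over all genes was 18.4%, 7.79% higher and 10.6% lower. The median log2 fold change was -0.93, against 0.00 over all genes. The 2 comparisons share the PP1 libraries, so their values are given side by side below and not as separate observations. By role, 8 of 12 chaperones and co-chaperones fell, 3 of 7 isomerases, 3 of 4 degradation factors, 2 of 3 sensor genes, 2 of 5 Sec61 translocon genes, 1 of 4 TRAP subunits and none of 3 signal peptidase genes. Without RNA PP2 library 3, 33 members fell and 1, ATF6, rose, with 41.4% of all genes called. Without PP1 library 1 or 2, which leaves PP1 without a replicate, fewer members fell and fewer genes of all kinds were called. SDF2L1, HERPUD1, PDIA5, CRELD2, EDEM1, ERN1, CALR, HYOU1, DNAJB11 and PDIA4 passed with each of the 7 RNA libraries left out in turn, whereas HSPA5 and MANF were lost without PP1 library 1, XBP1 and SEC63 without either PP1 library, and PDIA3, SYVN1, SEC61A1 and SSR4 with most libraries left out.

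HSPA5, the ER Hsp70 that holds the sensors inactive when unfolded protein is scarce, had 747 and 751 CPM of RNA in DE, 2131 and 2079 in PP1, then 401, 425 and 109.6 in PP2, where CPM is over library sizes scaled by the trimmed mean of M-values (TMM). PP1 was above DE and PP2 in every library, and PP2 library 3 was the lowest of all. Its rise to PP1 was 1.49 ± 0.54 on the log2 scale (± standard error of the fit throughout) and did not pass (edgeR adjusted p = 0.082). Without PP2 library 3 the same rise was 1.49 ± 0.08 and passed (edgeR adjusted p = 8.6e-12). Its fall to PP2 was -2.76 ± 0.49 (edgeR adjusted p = 0.00714). In Ribo, HSPA5 had 206 and 212 CPM in DE, 861 and 816 in PP1, then 722, 267 and 559 in PP2. The PP2 libraries lay between the DE and the PP1 libraries, with library 2 near DE.

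SDF2L1, a partner of the ER Hsp70 system, had the steepest RNA fall from PP1 to PP2 among the members. Its RNA was low: 4.86 and 3.78 CPM in DE, 24.01 and 17.4 in PP1, then 2.29, 3.004 and 2.67 in PP2, from 44 to 351 counts a library. The groups did not overlap. It rose by 2.26 ± 0.28 (edgeR adjusted p = 6.8e-04) and fell by 2.96 ± 0.25 (edgeR adjusted p = 3.3e-04). DNAJB9, the co-chaperone ERdj4 that returns BiP to IRE1, had 12.1 and 9.35 CPM in DE, 58.5 and 57.4 in PP1, then 16.5, 14.5 and 37.03 in PP2. It rose by 2.43 ± 0.44 (edgeR adjusted p = 0.00507), and its fall by 1.35 ± 0.37 (edgeR adjusted p = 0.0401) was lost when any RNA library but PP2 library 3 was left out.

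DNAJC3, the co-chaperone p58IPK, rose by 1.81 ± 0.33 (edgeR adjusted p = 0.00541), and DNAJB11, the co-chaperone ERdj3, by 1.27 ± 0.21 (edgeR adjusted p = 0.00295). MANF, a secreted ER-resident factor, had 57.0 and 58.6 CPM in DE, 171 and 107 in PP1, then 30.7, 31.6 and 57.3 in PP2. Its PP1 libraries were apart by more than 1.5 times, yet lay above all others. HYOU1, the Hsp110-type exchange factor of BiP, went from 498 and 562 CPM in DE to 1080 and 956 in PP1, a rise of 0.94 ± 0.20 (edgeR adjusted p = 0.0103), and then fell by 1.54 ± 0.18 (edgeR adjusted p = 0.00121) to 325, 356 and 369 CPM. HYOU1 in PP2 was also below its DE level. DNAJB11 and MANF fell to PP2 by 1.40 ± 0.18 and 1.80 ± 0.31 (edgeR adjusted p = 0.00208 and 0.00666).

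The changes of the lectins and GRP94 from DE to PP1 did not pass. CALR had the highest mean RNA level per kilobase of the members at each stage, 486 CPM per kb in DE, 642 in PP1 and 217 in PP2. It fell from PP1 to PP2 by 1.57 ± 0.18 (edgeR adjusted p = 0.00125), from 1770 and 1715 to 590, 644 and 530.1 CPM, so that no PP2 library reached the DE values of 1274 and 1367. HSPA5 followed CALR in PP1 with 537 CPM per kb, and HSP90B1 had 180.1, 197 and 142 in DE, PP1 and PP2. HSP90B1 passed no RNA test with all libraries kept, with log2 changes of 0.13 ± 0.28 and -0.48 ± 0.25 over the 2 steps. Its PP2 library 3 had 890 CPM, against a mean of 551 in PP2 libraries 1 and 2. CANX had 647 and 633 CPM in DE, 1239 and 1147 in PP1, then 647, 659 and 1169 in PP2. Only PP2 library 3 of CANX stayed at the PP1 level, and neither step passed. CRELD2, a secreted ER stress-induced protein, fell to PP2 by 1.71 ± 0.21 (edgeR adjusted p = 0.00159). SDF2, the paralogue of SDF2L1, changed by -0.24 ± 0.23 and 0.47 ± 0.21 and passed in neither step.

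The disulfide isomerases, which make and rearrange disulfide bonds, ranged from 0.17 to 0.75 in their RNA log2 change from DE to PP1, and the proline isomerases FKBP2 and PPIB were at 0.33 and 0.48. From PP1 to PP2, PDIA5 fell by 1.73 ± 0.16 (edgeR adjusted p = 5.7e-04), PDIA4 by 1.25 ± 0.19 and PDIA3 by 1.13 ± 0.31. PDIA5 had 49.2 and 46.6 CPM in DE, 54.5 and 53.6 in PP1, then 17.4, 17.2 and 14.2 in PP2, with PP2 below all others. P4HB had 365, 414 and 99.5 CPM in PP2 against 851 and 997 in PP1; its change of -1.66 ± 0.49 did not pass (edgeR adjusted p = 0.0503). PPIB, at -0.84 ± 0.25, and PDIA6, at -0.38 ± 0.27, did not pass either. FKBP2 had 11 to 19 RNA counts a library, and changes of 0.33 ± 0.47 and -0.61 ± 0.42 were not detectable at this depth.

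In ER-associated degradation, HERPUD1, which recruits the degradation complex and is a classic stress-induced gene, had the largest rise of all members. It had 22.6 and 19.2 CPM in DE, 238 and 227 in PP1, then 33.2, 36.9 and 49.3 in PP2. The groups did not overlap, and PP2 remained above DE. The rise was 3.47 ± 0.25 on the log2 scale, or 11.1-fold (edgeR adjusted p = 5.7e-05), and the fall was 2.54 ± 0.21 (edgeR adjusted p = 3.3e-04). EDEM1, which extracts misfolded glycoproteins, had 39.9 and 38.1 CPM in DE, 123 and 129 in PP1, then 40.4, 46.2 and 28.9 in PP2. It rose by 1.69 ± 0.24 and fell by 1.71 ± 0.21 (edgeR adjusted p = 0.00157 and 0.00169), so PP2 spanned the DE values. SYVN1, the ubiquitin ligase HRD1, had 34.95 and 40.9 CPM in DE and 104 and 83.8 in PP1; its change of 1.31 ± 0.50 did not pass, and its fall by 1.63 ± 0.44 did (edgeR adjusted p = 0.0369), with 39.0, 40.4 and 11.9 CPM in PP2. SEL1L, the adaptor of HRD1, passed in neither step.

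Of the sensor genes, ERN1 and XBP1 rose and then fell in RNA, while ATF6 passed in neither step. XBP1 had 89.6 and 88.5 CPM in DE, 326 and 322 in PP1, then 65.6, 78.6 and 159 in PP2; gene counts do not tell its spliced from its unspliced form. It rose by 1.86 ± 0.39 (edgeR adjusted p = 0.0101) and fell by 1.68 ± 0.34 (edgeR adjusted p = 0.0129). ERN1 had 15.6 and 17.6 CPM in DE, 64.7 and 58.8 in PP1, then 21.4, 22.4 and 14.9 in PP2. It rose by 1.89 ± 0.24 (edgeR adjusted p = 8.6e-04) and fell by 1.66 ± 0.21 (edgeR adjusted p = 0.00183). ATF6 had 44.2 CPM in each DE library, 50.5 and 49.8 in PP1, then 64.1, 64.4 and 112 in PP2, with PP2 highest. From DE to PP2 it rose by 0.86 ± 0.27 (edgeR adjusted p = 0.0393).

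Among the translocation genes, SEC61A1 and SEC63 of the Sec61 translocon and SSR4 of the TRAP complex rose and then fell in RNA. SEC61A1, the channel itself, had 191 and 187 CPM in DE, 398 and 382 in PP1, then 159, 169 and 279 in PP2, with a rise of 1.05 ± 0.29 (edgeR adjusted p = 0.0304) and a fall of 0.94 ± 0.26 (edgeR adjusted p = 0.0376). SEC63, which couples the channel to BiP, rose by 1.11 ± 0.21 and fell by 0.91 ± 0.18 (edgeR adjusted p = 0.00577 and 0.0125). The small channel subunits SEC61B and SEC61G were at -0.14 ± 0.41 and -0.32 ± 0.33 from DE to PP1, and SEC62 at 0.55 ± 0.24. Of the TRAP subunits SSR4 rose by 0.95 ± 0.25 and fell by 0.89 ± 0.22 (edgeR adjusted p = 0.0250 and 0.0275), and SSR1, SSR2 and SSR3 passed in neither step. The signal peptidase genes SPCS1, SPCS2 and SPCS3 had log2 changes of 0.03, 0.63 and 0.01 from DE to PP1. SPCS2 is uncertain here, since pseudogenes of it are listed in the table and reads can be shared with them. Pseudogenes of PDIA3, XBP1, HSP90B1 and SSR4 are listed as well.

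**Figure D2:**
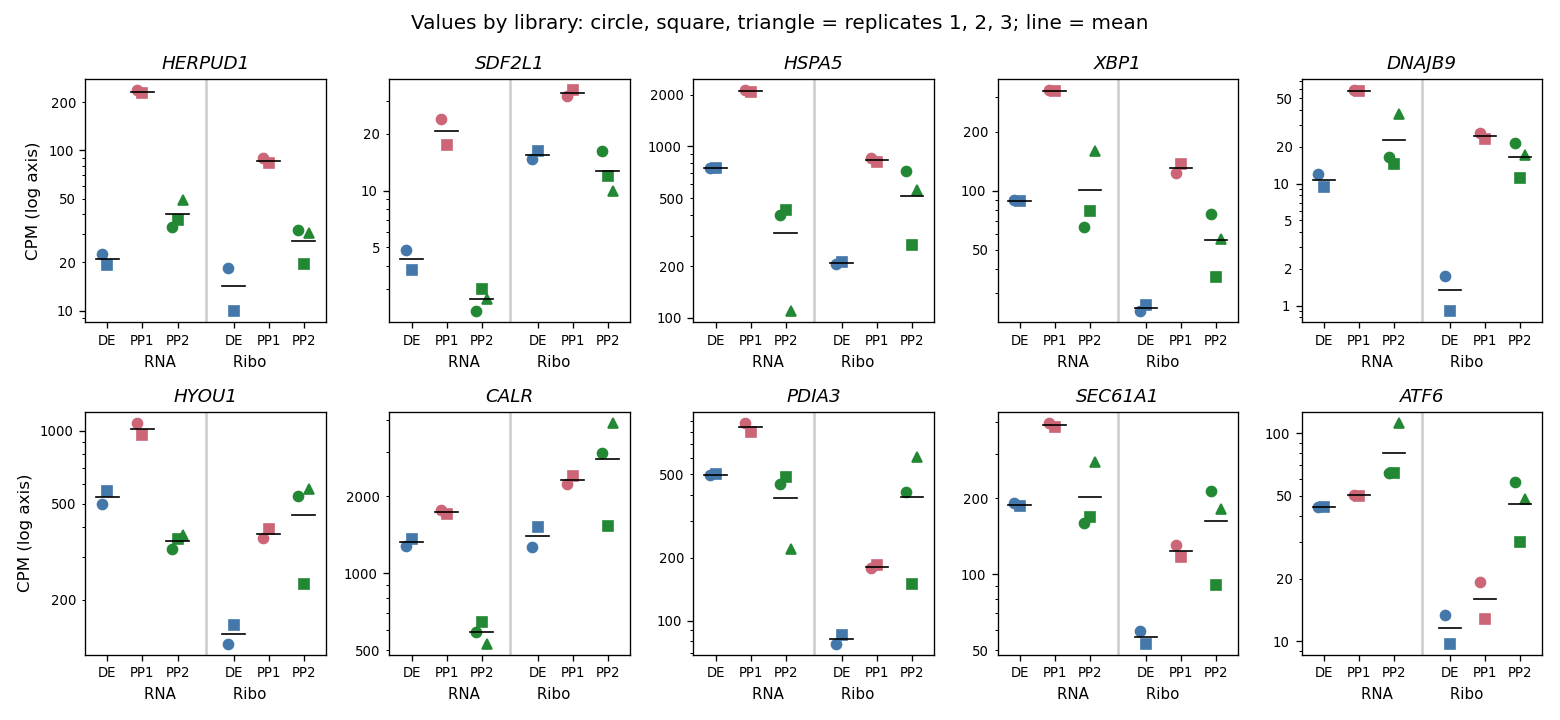
RNA and Ribo CPM, on a log axis, of selected members in every library, by stage; each point is 1 library. HERPUD1 RNA lies between 19.2 and 22.6 CPM in DE, at 227 and 238 in PP1 and between 33.2 and 49.3 in PP2.

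Against DE, RNA in PP2 was higher for HERPUD1 (0.93 ± 0.22) and ATF6 and lower for PDIA5 (-1.56 ± 0.16), SEC61B (-1.21 ± 0.37), CALR (-1.17 ± 0.18), CRELD2 (-1.02 ± 0.21), PDIA4 (-0.83 ± 0.19) and HYOU1 (-0.60 ± 0.18). These 8 of 38 compare with 33.5% called over all genes, 16.4% higher and 17.1% lower, and 13 members had an unadjusted p under 0.05. The members' median was -0.24. Without PP2 library 3, 9 rose and 19 fell, with 52.5% of all genes called, and XBP1 turned from 0.18 ± 0.35 to -0.30 ± 0.09. Without DE library 1 or 2, which leaves DE without a replicate, fewer members and fewer genes of all kinds passed.

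Members that hold ERSE or ERSE-II can be set beside the others as a description. From DE to PP1, 4 of the 9 rose in RNA with a median of 0.94, and 9 of the 27 without either motif rose with a median of 0.63. From PP1 to PP2, 7 of the 9 fell with a median of -1.68, and 11 of the 27 fell with a median of -0.89. With all libraries kept, HSP90B1 and CANX, which hold ERSE, passed in neither step. ERN1, DNAJB9 and EDEM1 hold neither motif in this window and passed in each. RNA PP2 library 3 had 890 CPM of HSP90B1, within the PP1 values of 853 to 998, against a mean of 551 in PP2 libraries 1 and 2. For CANX it had 1169 CPM, also within PP1 (1147 to 1239), against a mean of 653. Without that library 33 members fell from PP1 to PP2, with 41.4% of all genes called.

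In the ribosome profiles, 5 of 37 tested members rose from DE to PP1 and none fell, against 7.54% called over 15067 genes, 4.53% higher and 3.01% lower. FKBP2, with 2 to 29 Ribo counts, was not tested. The 5 were DNAJB9, HERPUD1, XBP1, DNAJC3 and SYVN1, and the median of the members was 0.77 against -0.04 over all genes; 13 had an unadjusted p under 0.05, 12 of them higher. DNAJB9 rose most, by 4.19 ± 0.55 (edgeR adjusted p = 9.8e-04), from 1.77 and 0.902 CPM to 26.0 and 23.1, with only 10 and 5 counts in the DE libraries. HERPUD1 had 18.4 and 9.92 CPM in DE, 89.0 and 83.3 in PP1, then 31.6, 19.5 and 30.5 in PP2, and rose by 2.60 ± 0.42 (edgeR adjusted p = 0.00367). XBP1 had 24.4 and 26.3 CPM in DE, 123 and 137 in PP1, then 75.8, 36.2 and 56.9 in PP2, and rose by 2.36 ± 0.42 (edgeR adjusted p = 0.00616). Ribo counts of DNAJC3 rose by 2.002 ± 0.41 and those of SYVN1 by 1.45 ± 0.39 (edgeR adjusted p = 0.0134 and 0.0484). For all 5, every PP1 library was above every DE library, which follows largely from their choice by the test on these libraries and adds no support.

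DNAJB9 passed with each of the 7 Ribo libraries left out in turn, and HERPUD1 was lost without DE library 2. The number of Ribo calls changed with the PP2 libraries that share the fit. With PP2 libraries 1 and 3 left out, 19 members rose from DE to PP1 and 1 fell, with 17.8% of all genes called. Without PP2 library 2, 11 rose and 1 fell, with 15.1% called. HSPA5 was at 2.01 ± 0.56 with all libraries (edgeR adjusted p = 0.0553) and at 2.05 ± 0.22 with PP2 libraries 1 and 3 left out (edgeR adjusted p = 7.9e-07). Without a DE or PP1 library, which leaves that stage without a replicate, fewer members and fewer genes of all kinds passed.

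From PP1 to PP2 the Ribo values of most members did not pass. HERPUD1 fell by 1.66 ± 0.36 (edgeR adjusted p = 0.0268), SDF2L1 fell by 1.36 ± 0.34 (edgeR adjusted p = 0.0458) and SPCS1, a signal peptidase subunit, rose by 1.59 ± 0.39 (edgeR adjusted p = 0.0442). The share called over all genes was 5.01%, 2.16% higher and 2.85% lower, and 10 members had an unadjusted p under 0.05, 7 of them higher. The median of the members was 0.25, against 0.04 over all genes. SDF2L1 had 31.6 and 34.1 CPM of Ribo in PP1 and 16.3, 12.0 and 9.93 in PP2. SPCS1 had 27.1 and 31.5 CPM in PP1 and 112, 52.3 and 99.1 in PP2, while DE was at 58.1 and 58.4. With PP2 libraries 1 and 3 left out the median turned to -0.47 and HSPA5, HERPUD1 and XBP1 fell, with 4.54% of all genes called. Without PP2 library 2 it was 0.56, with 11 risen and 3 fallen members and 23.6% of all genes called. No member passed without PP2 library 3, with 1.33% of all genes called. Without a DE or PP1 library, which leaves that stage without a replicate, fewer members and fewer genes of all kinds passed. The direction of this step for the members as a set therefore differs between the PP2 Ribo libraries.

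**Figure D3:**
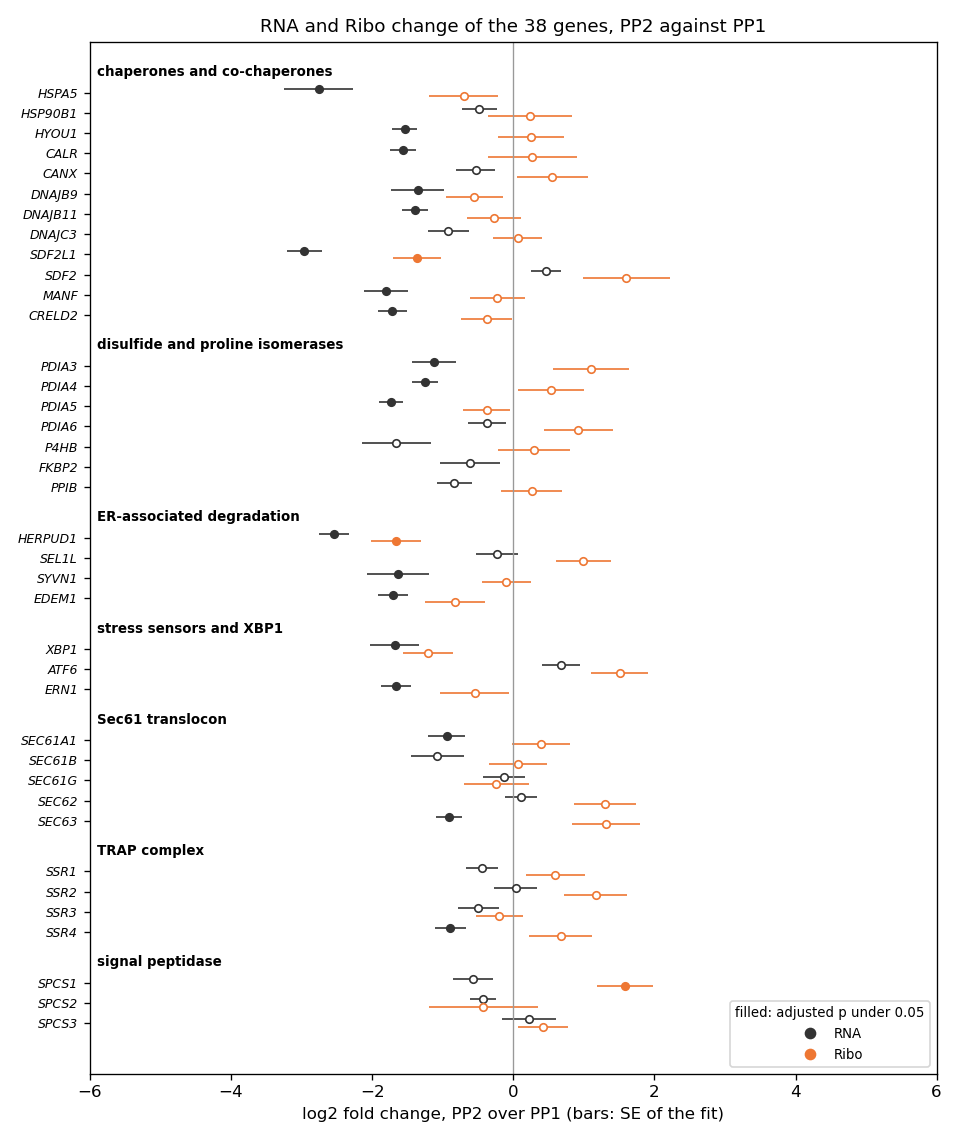
Log2 fold change of each of the 38 genes in PP2 over PP1, in RNA (black) and Ribo (orange), grouped by role; points are fitted values, bars are the standard error of the fit, and filled points have an adjusted p under 0.05. In RNA 19 genes are filled to the left of 0, and in Ribo HERPUD1 and SDF2L1 are filled to the left and SPCS1 to the right.

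Against DE, 13 of 37 members rose in Ribo at PP2 and none fell, with 27.6% called over all genes, 13.1% higher and 14.5% lower. The members' median was 1.11, against 0.03 over all genes, and 19 had an unadjusted p under 0.05, all higher. They were 4 chaperones and co-chaperones, led by DNAJB9 at 3.64 ± 0.52 (edgeR adjusted p = 8.5e-04), with DNAJC3, CANX and HYOU1; PDIA3 at 2.25 ± 0.57 (edgeR adjusted p = 0.0160); SEL1L at 2.09 ± 0.41 and SYVN1; ATF6 at 1.97 ± 0.41 and XBP1; SEC63 at 2.12 ± 0.50, SEC62 and SEC61A1; and the TRAP subunit SSR2 at 1.81 ± 0.46. PDIA3 had 77.9 and 86.0 CPM in DE, 178 and 185 in PP1, then 413, 150.2 and 605 in PP2. Its PP2 libraries 1 and 3 were above every other library and library 2 was below PP1. With PP2 libraries 1 and 3 left out 8 members rose (14.2% of all genes called) and the median was 0.33. Without PP2 library 3 also 8 rose (14.4% called), and without PP2 library 2 there were 27 (46.4% called). Without DE library 1 or 2, which leaves DE without a replicate, fewer members rose and fewer genes of all kinds were called. DNAJB9 and DNAJC3 passed with each Ribo library left out in turn.

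The ratio of Ribo to RNA, taken as log2 of the mean Ribo CPM over the mean RNA CPM of a stage, is a relative measure, because each assay is scaled on its own. Its median over the 37 members was -0.97 in DE, -0.86 in PP1 and 0.35 in PP2, and scaling on coding genes alone gave 0.11, 0.25 and 1.29, so the sign of a ratio depends on the scaling. Against the 12830 coding genes tested, whose medians were -1.16, -1.18 and -0.94, 21, 21 and 33 of the 37 members lay above the median. By Ribo library the members' median was -1.14 and -1.02 in DE, -0.97 and -0.79 in PP1, then 0.61, -0.39 and 0.66 in PP2, against -1.22 to -0.98 for coding genes. All PP2 libraries were above the others, and library 2 was the closest to PP1.

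HSPA5 had ratios of -1.86 and -1.82 in the DE libraries, -1.29 and -1.37 in PP1, then 1.21, -0.22 and 0.84 in PP2. CALR was at -0.06 and 0.20 in DE, 0.36 and 0.46 in PP1, then 2.33, 1.38 and 2.73 in PP2. PDIA3 was at -2.68 and -2.54 in DE, -2.24 and -2.19 in PP1, then 0.10, -1.36 and 0.65 in PP2. For these 3 genes every PP2 library was above every other library. They are named as examples, and the share of members or of coding genes with this order is not given here. The ratios of a gene within a stage are all taken over the same mean RNA CPM, so the PP2 libraries share any error in that mean. The order did not hold for SSR3, SPCS3, SEC61G, ERN1 and EDEM1, among others. HERPUD1 did not share the order: it was at -0.19 and -1.08 in DE, -1.39 and -1.48 in PP1, then -0.33, -1.03 and -0.38 in PP2. XBP1 had -0.41, -1.48 and -0.83 in PP2, where library 2 fell below both PP1 values of -1.40 and -1.24. SSR4 had the highest PP2 ratio of the members, 2.65, and SDF2L1 the highest in DE, 1.84; each had a percentile of 93 or higher among coding genes at every stage. The lowest was SPCS2, at -4.45, -4.23 and -4.23, with 8 to 108 Ribo counts a library.

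**Figure D4:**
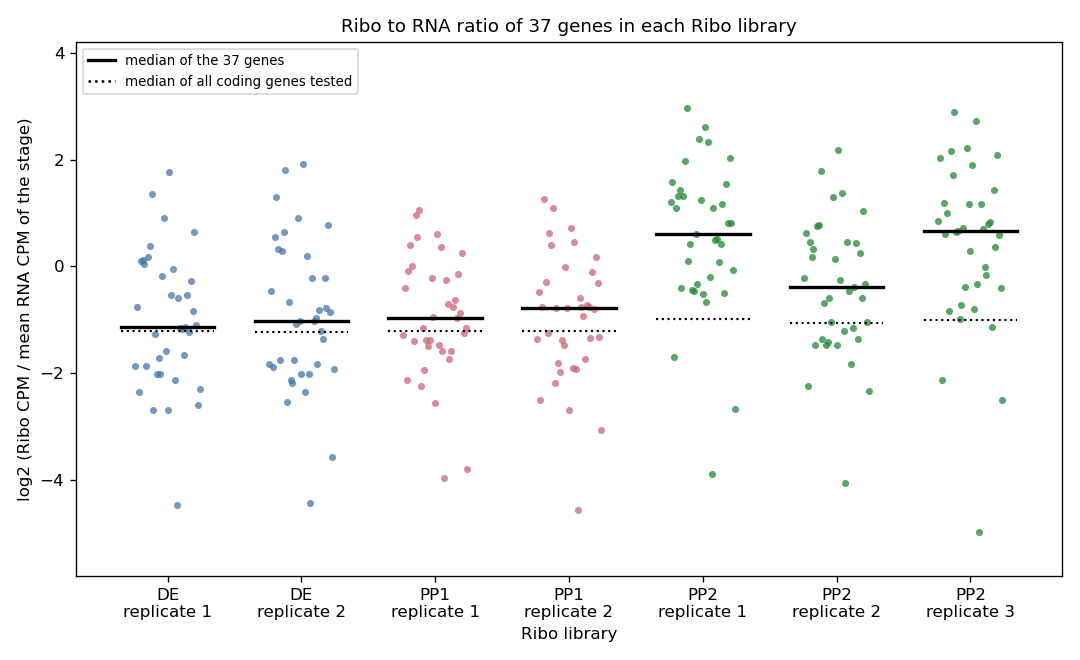
Log2 of Ribo CPM over the mean RNA CPM of the stage, for 37 genes in each of the 7 Ribo libraries; points are genes, solid bars the median of the 37 and dotted bars the median of all coding genes tested. The medians are 0.61 and 0.66 in PP2 libraries 1 and 3 and -0.39 in PP2 library 2, against -1.14 to -0.79 in the DE and PP1 libraries.

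Translation efficiency (TE), the Ribo change minus the RNA change, was tested in 1 fit over all 14 libraries and 14152 genes. From DE to PP1 no member of 37 passed with edgeR, in either direction, and 0 passed by DESeq2. Over all genes edgeR called 0.269%, 0.0707% higher and 0.198% lower. Of the members, 3 had an unadjusted p under 0.05, 1 of them higher. The Ribo rise of HERPUD1, DNAJB9, XBP1 and DNAJC3 was thus not shown to differ from their RNA rise. The TE values of these genes were, in that order, -0.82 ± 0.46, 1.81 ± 0.70, 0.55 ± 0.55 and 0.25 ± 0.51. From PP1 to PP2 none passed with edgeR, where 0.0777% of all genes were called, all of them lower. The values of 35 of 37 members were above 0, with a median of 0.96 against 0.00 over all genes, and 18 had an unadjusted p under 0.05, all higher, against 10.5% of all genes in either direction. DESeq2 called 6 members, all higher, and 1.72% of all genes. Without Ribo PP2 library 2, 13 rose and 8.01% of all genes were called; with Ribo PP2 libraries 1 and 3 left out no member and no other gene passed, and the median was 0.32.

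From DE to PP2 the TE of 4 members rose and that of none fell: PDIA3 by 2.50 ± 0.66 (edgeR adjusted p = 0.0388), DNAJB9 by 2.44 ± 0.65 (edgeR adjusted p = 0.0412), HYOU1 by 2.10 ± 0.50 (edgeR adjusted p = 0.0274) and PDIA4 by 2.09 ± 0.48 (edgeR adjusted p = 0.0250). Over all genes 5.69% were called, 2.01% higher and 3.68% lower, and the members' median was 1.05 with 33 of 37 above 0. For PDIA3 this set an RNA mean of 385 ± 144 CPM (SD, n = 3) in PP2 and 499 ± 2.91 (SD, n = 2) in DE beside Ribo means of 389 ± 228 and 82.0 ± 5.78. HSPA5 and CALR were at 2.44 ± 0.71 and 2.05 ± 0.60 and missed the threshold (edgeR adjusted p = 0.0556 and 0.056). With Ribo PP2 libraries 1 and 3 left out no member passed, the median was 0.52 and 1.25% of all genes were called. Without Ribo PP2 library 2, 21 members rose, beside 26.7% of all genes called, and without RNA PP2 library 3, 9 rose, beside 7.09%. With RNA PP2 library 3 and Ribo PP2 libraries 1 and 3 left out together, 14 rose, beside 8.47%. The MT-RNR2 share of the Ribo libraries moves with these differences, and its part in them was not tested.

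Genes beside the 38 were followed in lists of the same machinery. Over all genes in RNA, 12.3% were called higher and 12.0% lower from DE to PP1. From PP1 to PP2, 7.79% were called higher and 10.6% lower. In the PERK branch and ATF4 output, 10 of 11 genes rose from DE to PP1 in RNA (median 2.86) and 10 of 11 fell from PP1 to PP2 (median -2.36). NUPR1, a stress-induced chromatin-associated protein, had the largest change in both steps (edgeR adjusted p = 6.4e-05 and 1.6e-04), with 0 and 2 RNA counts in DE, 254 and 322 in PP1, then 4, 2 and 2 in PP2. Over scaled library sizes the PP1 level of NUPR1 was 272 times the DE level, with a 95% interval for counting error of 74.9 to 2248. The gene that did not pass in either step was ATF4 itself, and without RNA PP2 library 3 all 11 passed in both. In Ribo 5 of the 11 rose to PP1, with 4.53% of all genes called higher, and 6 fell to PP2, with 2.85% called lower. Of the 24 other folding and oxidation genes, 9 rose and 1 fell from DE to PP1 in RNA, with ERO1B, a disulfide oxidase, highest at 1.67 ± 0.40 and PDIA2, a pancreas-type disulfide isomerase, lowest at -2.25 ± 0.63 (edgeR adjusted p = 0.0174 and 0.0339), and 6 fell from PP1 to PP2, led by FKBP11 at -1.68 ± 0.22 (edgeR adjusted p = 0.00202). Of the 18 other degradation genes 3 rose and 1 fell, then 1 rose and 3 fell. EDEM2 rose most to PP1, by 1.45 ± 0.21, and fell most to PP2, by 0.95 ± 0.19 (edgeR adjusted p = 0.00169 and 0.0109), while VCP fell to PP1 by 0.84 ± 0.20 and EDEM3 rose to PP2 by 1.10 ± 0.27 (edgeR adjusted p = 0.0158 and 0.0273). Without RNA PP2 library 3 the other folding genes gave 18 risen and 1 fallen, then 3 risen and 15 fallen, and the other degradation genes 8 risen and 3 fallen, then 1 risen and 6 fallen. Of all genes, 49.8% and 41.4% were then called in the 2 steps.

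The oligosaccharyltransferase, which attaches glycans to proteins as they enter the ER, had 0 of 11 genes called from DE to PP1 in RNA and 1 fallen, DDOST at -0.65 ± 0.17, from PP1 to PP2. Its medians were 0.25 and 0.08. Without RNA PP2 library 3, 6 rose and 2 fell to PP1, beside 49.8% of all genes called. To PP2, 1 rose and 6 fell, beside 41.4%, and the median turned to -0.28. Of the 8 genes of the signal recognition particle and its receptor, which bring ribosomes to the ER, SRPRB alone rose to PP1, by 1.54 ± 0.31 (edgeR adjusted p = 0.00847), and SRP68 alone fell to PP2, by 0.80 ± 0.22. In Ribo at PP2 against DE, where 27.6% of all genes were called, 13.1% higher, 5 of 11 oligosaccharyltransferase genes rose, and 12 of 24 other folding genes rose and 1, PDIA2, fell. PDIA2 had 40 and 48 Ribo counts in DE and 0 in each PP2 library, at least 160-fold lower against a floor of 3 counts over the PP2 group. With Ribo PP2 libraries 1 and 3 left out 3 of 11 rose, and 3 of 24 rose and 1 fell. Without Ribo PP2 library 2, 7 of 11 rose, and 18 of 24 rose and 2 fell, beside 46.4% of all genes called.

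Markers of other lineages also differed between stages. The 7 hepatic markers all rose in RNA from DE to PP1, and their summed level was 16.1 to 18.4 CPM in DE, 12950 to 13990 in PP1 and 4734 to 7154 in PP2, with AFP, TTR, FGB and SERPINA1 at 0 in DE. From PP1 to PP2, 5 of the 7 fell and SERPINA1 rose. In Ribo their sums were 19.1 to 26.3, 12430 to 12660, and 7270 to 19970 CPM. All 3 intestinal markers also rose to PP1, with sums of 15.8 to 16.2 CPM in DE, 422 to 478 in PP1 and 137 to 171 in PP2, where 2 of the 3 fell. The 4 mesenchyme markers summed to 54.0 to 64.7 CPM in DE, 315 to 360.2 in PP1 and 135 to 304 in PP2. Of these 4, 1 rose to PP1, and 1 rose and 1 fell to PP2; COL1A1, a fibrillar collagen, averaged 47.9, 245 and 31.4 CPM in DE, PP1 and PP2, and COL3A1, another, 0, 84.0 and 162. The 4 endocrine markers summed to 0.726 to 1.79 CPM in DE and PP1 and to 47.8 to 70.6 in PP2. Nearly all of the PP2 sum was CHGA, with a mean of 61.9 CPM. NEUROG3 averaged 0.589 CPM there, and INS and GCG 0.0323 each. The part of these cells or genes in the change of the ER machinery was not tested, and in bulk libraries a change in the share of cells of a type and a change in RNA per cell cannot be told apart.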

How the data were processed

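Gene counts per library were analysed. The authors deposited 1 table of raw counts for 59050 genes and 14 libraries, with a gene length column, which served for CPM per kb. Per the submitters' processing notes, the tools were cutadapt 1.18, Bowtie 1.2, STAR 2.7.1a and featureCounts 1.6.4, with builds hg38 and GRCh38. Their order, the strand setting, the annotation and the feature over which Ribo reads were summed are not given in the sources used here, so counts of overlapping or antisense genes cannot be separated.

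RNA and Ribo were each fitted over all 3 stages with edgeR 4.0.16 under R 4.3.3, using filterByExpr, trimmed mean of M-values (TMM), estimateDisp, glmQLFit and glmQLFTest. TE was the interaction in 1 fit of 6 groups over genes that filterByExpr kept for RNA and for Ribo. P-values were adjusted by Benjamini-Hochberg over all genes tested, with 0.05 as the threshold. The fits were tested on simulated data with 200 changed genes. Coding genes were those with a protein-coding RefSeq symbol or synonym.

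All 38 members were named; other genes were named only as the highest or lowest passing fold change of their list, or as stage, composition or lineage markers. The members and lists were chosen with earlier results of these data known. Alternatives were DESeq2 size factors, coding genes only, no low-count filter, the Wald test of DESeq2 1.42.0, a replicate block, and leaving out libraries. No count column lacked a sample, and no 2 libraries were identical.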

Additional observations from a re-analysis of the deposited data

How the results depend on the processing

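Which library was left out mattered more for counts of members passing than the choice of scaling. Scaling by DESeq2 size factors kept every count within 1.5 times. With coding genes only, Ribo PP2 against PP1 gave 5 members (8.67% of all genes tested were called) and the median ratios were 0.11, 0.25 and 1.29 in DE, PP1 and PP2. Without a low-count filter, RNA PP2 against DE gave 13 (23.1% of all genes called), Ribo PP2 against PP1 gave 6 (5.04%) and TE PP2 against DE gave 11 (6.87%). The DESeq2 Wald test gave 6 for Ribo PP2 against PP1 (10.6% of all genes called), 6 for TE PP2 against PP1 (1.72%) and 11 for TE PP2 against DE (14.6%). With Ribo PP2 libraries 1 and 3 left out, Ribo PP1 against DE gave 20, Ribo PP2 against DE 8 and TE PP2 against DE 0; the PP2 group then holds 1 Ribo library, which is assumed to vary like the other groups. With RNA PP2 library 3 also left out, a setting chosen after seeing the data, TE PP1 against DE gave 4 (DNAJB9 and HSPA5 higher, EDEM1 and SPCS1 lower) and TE PP2 against DE 14.

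With each library left out in turn, the counts ranged from 6 to 27 (RNA PP1 against DE), 10 to 34 (RNA PP2 against PP1), 2 to 28 (RNA PP2 against DE), 1 to 12 (Ribo PP1 against DE), 0 to 14 (Ribo PP2 against PP1), 2 to 27 (Ribo PP2 against DE), 0 to 0 (TE PP1 against DE), 0 to 13 (TE PP2 against PP1) and 0 to 21 (TE PP2 against DE). For RNA PP2 against DE, leaving out PP1 library 1 or 2 gave 5 each. For TE PP2 against DE, leaving out RNA DE library 1 or 2, RNA PP2 library 1 or Ribo DE library 1 gave 0, leaving out RNA PP1 library 1 or 2, RNA PP2 library 2 or Ribo PP2 library 3 gave 1, and leaving out Ribo DE library 2 or Ribo PP2 library 1 gave 2. The highest counts came without RNA PP2 library 3 (RNA) or Ribo PP2 library 2 (Ribo and both TE comparisons with PP2). The shares called over all genes were then 49.8%, 41.4% and 52.5% in RNA, 15.1%, 23.6% and 46.4% in Ribo, and 8.01% and 26.7% in TE. Leaving out a DE or PP1 library left that group without a replicate, and a smaller share of all genes tested was then called in each comparison. The median ratio ranged from -1.17 to -1 in DE, from -0.93 to -0.71 in PP1 and from 0.06 to 0.61 in PP2. Without RNA PP2 library 3 the RNA change reversed for 4 members, so that with each library left out it ranged from -0.37 to 0.22 for SSR2 and from -0.30 to 0.45 for SPCS3 from PP1 to PP2, and from -0.30 to 0.42 for XBP1 and from -0.29 to 0.46 for SPCS3 from DE to PP2. The cause was not tested.

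With the replicate number as a block, the RNA comparisons gave 26, 34 and 28 members for PP1 against DE, PP2 against PP1 and PP2 against DE, Ribo PP2 against PP1 gave 0, Ribo PP2 against DE 4 and TE PP2 against DE 1. The shares called over all genes were then 47.6%, 39.7% and 50.7% in RNA, 1.33% and 11.2% in Ribo and 2.13% in TE. The same 4 RNA changes reversed under the block, at -0.37 for SSR2, -0.31 and -0.29 for SPCS3 and -0.31 for XBP1. PP2 replicate 3 is the only library of its number in each assay, so in the RNA and Ribo fits the block takes it out of the stage comparison. In the TE fit the block was the stage with the replicate number. It set each RNA library beside the Ribo library of the same number, so PP2 replicate 3 stayed in. Deviations from the group mean were correlated between same-numbered libraries. The correlations were -0.181 to 0.211 over 6 pairs of RNA stages and -0.27 to 0.071 over 6 pairs of Ribo stages. Over 7 pairs of RNA with Ribo they were -0.143 to 0.1. In a group of 2 libraries the deviations mirror each other, so pairs within DE and PP1 repeat the same value. The pairs are not independent and cannot decide whether the numbers mark a pairing. The numbers were not taken as one. The depth of the DE and PP1 Ribo libraries, with 5 and 10 counts for DNAJB9 in DE, limits what low-expressed members can show.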
